A study of Mus musculus with 12 samples.

Results

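At 3279 of the 13917 autosomal CpG sites in the deposited count table (23.6%), at most 10% of the reads were methylated in each of the 12 spermatozoa samples. These sites, called unmethylated sites from here on, were selected on the methylation of all 12 samples, so their low methylation is a description and was not tested. The whole table held 14149 sites, each with at least 10 reads in every sample. Whether these are all sites so covered is not given in the sources used here, so every share is one of the listed sites. On the autosomes, 1551 other sites (11.1%) were methylated at 90% or more in every sample, and 9087 sites fell in neither class.

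Spermatozoa came from 4 origins, with 3 samples each: the testis, and then the caput, corpus and cauda, which they pass through in that order as they mature in the epididymis. CpG methylation was measured by reduced representation bisulfite sequencing (RRBS), which reads fragments of the genome cut at CCGG and so covers mainly CpG-rich sequence. Cells were sorted by flow cytometry for a red mitochondrial and a green acrosomal fluorescent protein, DsRed2 under the CAG promoter and Acr3-EGFP, and each sample was a pool of several mice. All samples of testis, caput, corpus and cauda came from untreated B6D2F1 mice with the transgene Tg(CAG/su9-DsRed2, Acr3-EGFP)RBGS002Osb, aged 10 to 12 weeks. The origins thus differed by no genotype, treatment or age, but they differed in collection. Per the paper, cauda spermatozoa were flushed out by perfusion, while testis, caput and corpus were cut up and dissociated. Differences between cauda and the other origins can therefore not be told apart from this difference in collection.

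In mammalian genomes most CpGs are methylated, and the main exceptions are CpG islands, short CpG-rich stretches that overlap the promoters of housekeeping genes and of many developmental regulators. The genome of mature spermatozoa is highly methylated outside these islands. Methylation of imprinted control regions is set in the germ line, with only a few regions, such as that of H19, methylated in sperm.

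The sperm identity of the samples was checked at sites with a known state in sperm, which does not check the labels of origin. At the single table site near the H19 promoter, the testis samples were methylated at 97.8%, 96.7% and 92.8%, those of caput at 87.1%, 93.2% and 93.7%, those of corpus at 97.1%, 94.1% and 89.3%, and those of cauda at 98.9%, 98.4% and 97.1%. At the 3 sites of the Mcts2 promoter, an imprinted locus methylated in oocytes, mean methylation was 0%, 1.71% and 5.61% in testis and 0%, 0% and 4% in cauda. The same 3 sites averaged 68.2%, 22.6% and 16.9% in caput and 0%, 9.20% and 0% in corpus. The testis and cauda samples thus had the high H19 and low Mcts2 values known for sperm, and the caput samples were higher at Mcts2. At Zrsr1, another imprinted transcript methylated in oocytes, the mean of 4 sites was 0%, 0% and 8.99% for testis, 26.8%, 0% and 11.4% for caput, 0%, 7.91% and 16.9% for corpus and 0%, 0% and 3.41% for cauda, so caput and testis overlapped there. Whether other DNA in the caput samples had a part in the Mcts2 values was not tested.

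Residual methylation at the unmethylated sites was low in every sample. Its mean over the 3279 sites was 0.427%, 0.625% and 0.551% for the testis samples and 0.461%, 0.502% and 0.420% for the caput samples. Corpus samples had means of 0.279%, 0.718% and 0.411%, and cauda samples 0.599%, 0.503% and 0.530%. The lowest and the highest value both belonged to corpus samples. Testis and corpus samples overlapped with those of every other origin, while each caput sample lay below each cauda sample, by little at the nearest pair (0.50165% and 0.50257%). By origin, testis stood at 0.534% ± 0.0998, caput at 0.461% ± 0.0410, corpus at 0.469% ± 0.225 and cauda at 0.544% ± 0.0494 (SD, n = 3). Because these samples chose the sites, no test was made between origins here. The order of caput against testis and cauda depends on the processing. With at least 20 reads in every sample, caput was at 0.786%, testis at 0.678% and cauda at 0.677%. Caput was also higher than both at a limit of 20%, with the rule on pooled reads of each origin and in pooled reads.

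Over all samples, 15165 of 2139970 reads at the unmethylated sites were methylated (0.709%). A read that covers several CpGs is counted at each of them. Pooled by origin, the methylated share was 0.676% in testis (95% Wilson interval 0.656 to 0.697%, of 631399 reads), 0.773% in caput (0.750 to 0.797%, of 527917), 0.727% in corpus (0.703 to 0.751%, of 482244) and 0.664% in cauda (0.641 to 0.686%, of 498410). Intervals and upper limits cover counting error only, and they are too narrow here because neighbouring sites share reads. Pooled values exceeded the means over sites in every origin, since deep sites weigh more in them.

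Residual methylation was spread unevenly over the sites. At 1156 of the 3279 sites (35.3%) not 1 methylated read was counted in any of the 12 samples. A further 441 sites had exactly 1 methylated read, 359 had exactly 2, and 1323 had 3 or more. The pooled percent over all samples had a median of 0.368% per site, and it was above 1% at 547 sites (16.7%), above 3% at 37 and above 5% at 6. Methylated reads appeared in a single sample at 848 sites and in 6 or more samples at 178, and 6 sites had them in all 12 samples. Within single samples, the share of sites with 0 methylated reads ran from 79.7% in corpus replicate 2 to 93.0% in corpus replicate 1.

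Most unmethylated sites lay well inside the limit. The highest value in any sample was at most 5% at 2258 sites and had a median of 3.03%, while 64 sites reached exactly 10% in a sample. Just inside the limit, a site 295 bases upstream of Ppme1 (chr7:100372602) was at 10% in corpus replicate 1, from 90 reads, and a site in an intron of the sphingosine receptor gene S1pr1 (chr3:115714653) was at 10% in corpus replicate 3, from 70 reads. The next, 151 bases from a start of E130102H24Rik (chr4:101356584), was at 10% in corpus replicate 2, from 50 reads. In all 12 samples together, these 3 sites were methylated in 25 of 1619, 11 of 742 and 6 of 580 reads.

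Just outside the limit, an untranslated exon of Ank3, which encodes the membrane adaptor ankyrin-G, held a site (chr10:69925637) at 10.2% in corpus replicate 3, from 59 reads. A site near Mcur1, a regulator of mitochondrial calcium uptake (chr13:43559456), was at 10.2% in corpus replicate 2, also from 59 reads. A site upstream of the histone demethylase gene Kdm4a (chr4:118180304) was at 10.2% in cauda replicate 3, from 49 reads. Pooled over the samples these 3 sites were at 2.11%, 3.19% and 1.51%, so each missed the limit through 1 sample. Among the other autosomal sites, 248 had a highest value between 10 and 12%.

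Depth at the unmethylated sites was somewhat below that of the rest by the median, but not by the mean. The testis samples had a median coverage of 40, 46 and 39 reads per site, the caput samples 28, 39 and 29, the corpus samples 23, 39 and 29, and the cauda samples 36, 30 and 34. At the other 10638 autosomal sites it was 45, 54 and 47, then 31, 42 and 34, then 19, 43 and 30, and 41, 36 and 41 in the same order. The unmethylated sites had the lower median in 11 of 12 samples. The exception was corpus replicate 1, the shallowest sample with 429606 reads over the whole table, against 616626 to 1007992 in the others. The ratio of the medians averaged 0.857 ± 0.0299 for testis, 0.895 ± 0.0385 for caput, 1.03 ± 0.161 for corpus and 0.847 ± 0.0271 for cauda (SD, n = 3). Over all samples it was 0.907, but it was 1.03 from mean coverage and 1.03 where every sample had at least 20 reads.

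Depth limits what the rule can show at a single site. A count of 0 methylated in 10 reads allows up to 30% (3 reads of the total), and 30 reads are needed to bring this to 10%. Coverage was under 20 reads in at least 1 sample at 2018 of the 3279 sites (61.5%), and the 95% Wilson upper bound was at or under 10% in every sample at 433 sites. Over the 12 samples together a site had a median of 406 reads, from 143 to 4637, and the pooled upper bound stayed under 5% at 3255 sites and under 1% at 668. Sites with a lowest coverage of 10 to 14 reads had a pooled percent of 0.392%, and those with 50 or more reads in every sample had 0.930%. At the lower depth the rule admits at most 1 methylated read in the shallowest sample, so these values are not independent of it. The share of autosomal sites that were unmethylated was 22.8% at a lowest coverage of 10 to 14 reads, 20.1% at 15 to 19, 21.3% at 20 to 29, 24.1% at 30 to 49 and 37.9% at 50 or more.

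Promoters held most of the unmethylated sites. Within 2 kb of a GENCODE transcription start lay 2982 of them (90.9%), against 29.3% of the other autosomal sites and 13.5% of the sites at 90% or more in every sample. Of the rest, 193 were intergenic (5.89%), 76 intronic (2.32%) and 28 exonic (0.854%). Seen from the regions, 48.9% of the 6094 promoter sites were unmethylated in all samples, against 4.96% of 3891 intergenic, 3.19% of 877 exonic and 2.49% of 3055 intronic sites. Pooled methylation of the members was 0.682% in promoters, 0.858% in intergenic sequence, 1.02% in introns and 1.57% in exons. The untranslated parts of transcripts held 24.0% of the unmethylated sites and 5.89% of the others.

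The share of unmethylated sites was highest around the transcription start and was lower with distance on both sides. It was 61.5% of 1089 sites in the 200 bases upstream of a start and 62.6% of 1124 sites in the first 200 bases downstream. From 200 to 500 bases it was 53.2% upstream and 56.1% downstream, and from 500 to 1000 bases 33.8% and 45.8%. It was 19.12% and 18.9% between 1000 and 2000 bases, and 2.94% beyond 5000 bases on either side. The median distance to a start was 267 bases for the unmethylated sites, of which 44.7% lay upstream.

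All autosomes took part. The share of sites that were unmethylated ran from 18.05% of 676 sites on chromosome 3 to 29.3% of 478 sites on chromosome 19, and chromosome 11 had the most unmethylated sites, 287 of 1019. On the X chromosome, which the rule left out, 67 of 207 sites (32.4%) were within the limit in every sample. On the Y chromosome 0 of 25 sites were.

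Unmethylated sites ran together along the genome. A cluster was a run of unmethylated sites with gaps of at most 100 bp and no other table site between them, and 2238 sites (68.3%) fell in 813 such clusters, which left 1041 single sites. Most clusters were small, with 456 pairs and 211 runs of 3, and 63 clusters held 5 sites or more. Their median span was 18 bp and the longest was 130 bp. In 97.8% of clusters all sites were on the same strand, and only 26 CpGs of the autosomes were read on both strands. Of these CpGs, 3 were unmethylated on both strands, 1 on 1 strand and 22 on neither. The sites of a cluster are therefore read mostly on the same fragments and are not separate measurements.

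Neighbours were mostly alike. Of the unmethylated sites, 2621 had another autosomal site within 100 bp, and for 82.0% of them the nearest was also unmethylated. Among other sites with such a neighbour the share was 8.09%. The 412 other sites that stood nearest to an unmethylated site were mostly near the limit, since 310 exceeded 10% in 1 sample only and 296 stayed at or below 20% in all. Only 13 of the 412 reached 50% in any sample.

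By gene, 1508 of the 2572 protein-coding genes with a table site within 2 kb of a start (58.6%) had at least 1 unmethylated site. Among the 1394 genes with 2 or more sites, every site was unmethylated at 527, some but not all at 512 and none at 355. So genes with only some sites within the rule were about as frequent as genes with every site within it. A site falls outside the rule as soon as a single sample passes the limit, and the sites of a gene can lie at different starts. Whether the 512 genes have clearly methylated sites beside unmethylated sites in the same promoter was not tested.

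The cluster with the most sites lay at Trmt12, a gene for a tRNA modification enzyme, with 11 sites in 120 bp (chr15:58872632-58872751), from 42 bases upstream to 77 bases downstream of the start. Over its 11 sites, methylated reads made up 0.285%, 0.232% and 0.563% in the testis samples and 0.615% in corpus replicate 2, and there were 0 in the other 8 samples. That is 6 methylated reads of 3837 in all. The samples had 149 to 431 reads over the cluster, and 0 of 149 reads allows up to 2.01%.

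Clusters of 8 sites stood at 6 places. In an intron of Npas3, which encodes a transcription factor of the nervous system (chr12:53253247-53253281), the methylated share was 0.367%, 0.682% and 0.563% for testis, 0.471%, 0.404% and 0.890% for caput, 0.365%, 0.464% and 0.324% for corpus and 0.391%, 1.18% and 0.395% for cauda. Upstream of Samd1, whose protein binds unmethylated CpG islands (chr8:83997517-83997553), it was 0%, 0.801% and 0.806% for testis, 1.04%, 0.738% and 0.870% for caput, 0.141%, 0.239% and 0% for corpus and 0.307%, 0.134% and 0% for cauda. The reads over these clusters numbered 12728 and 10807, and no sample passed 1.2%. The other 8-site clusters were in an exon of Cradd, a death domain adaptor gene (chr10:95323922-95323957, 0.413% of 9202 reads), in an exon of C87436 (chr6:86472441-86472479, 0.627% of 5423 reads), at the start of Erlin2, a gene of the endoplasmic reticulum (chr8:27023780-27023810, 0.210% of 3328 reads), and at the start of the cochaperone gene Chordc1 (chr9:18292109-18292129, 0.213% of 1875 reads). The C87436 cluster was the only one of the 10 clusters with most sites that lay outside promoters, with its sites 8291 to 8329 bases from the nearest annotated start.

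Among these 10 clusters, those with 7 sites were at Vangl2, a planar cell polarity gene (chr1:172026974-172027008, 0.548% of 13505 reads), upstream of Ppp2r3d, a phosphatase subunit gene (chr9:124424413-124424454, 0.501% of 10380 reads), and in an untranslated exon of Igf2bp1, an RNA-binding protein gene (chr11:96005855-96005887, 0.712% of 2389 reads). The highest single value at any site of the 10 clusters was 8.70%, at Igf2bp1. All 10 clusters were below 0.8% in reads pooled over sites and samples.

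The 4 clusters with most sites that lie outside untranslated exons of both annotations are printed to show the density of their CpGs. Each is read 5′ to 3′ from GRCm38 with 25 bases on either side, and capitals mark the measured unmethylated CpGs. The first is Npas3 (chr12:53253222-53253306, plus strand), the second Cradd (chr10:95323897-95323982, plus strand), the next C87436 (chr6:86472416-86472504, plus strand), and the last an intron of Kpnb1, the gene of importin beta (chr11:97187113-97187195, minus strand).
Npas3: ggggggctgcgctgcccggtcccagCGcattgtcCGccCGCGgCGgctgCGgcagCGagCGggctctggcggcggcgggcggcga
Cradd: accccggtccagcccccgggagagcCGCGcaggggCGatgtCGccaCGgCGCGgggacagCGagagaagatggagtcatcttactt
C87436: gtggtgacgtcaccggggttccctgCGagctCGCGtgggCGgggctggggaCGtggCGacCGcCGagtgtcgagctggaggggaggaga
Kpnb1: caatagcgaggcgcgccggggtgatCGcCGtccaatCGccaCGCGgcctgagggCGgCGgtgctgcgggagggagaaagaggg
These windows held 15, 10, 11 and 12 CpGs, of which 8, 8, 8 and 7 were measured and unmethylated. Their GC content was 83.5%, 68.6%, 73.0% and 72.3%, and each held at least 1 CCGG, where MspI cuts.

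CpG density was higher around the unmethylated sites than around the rest. In the window of 100 bases on each side, they had a median GC content of 56.7% and 12 CpGs, against 48.3% and 6 CpGs for the other autosomal sites and 46.8% and 5 for sites at 90% or more. The observed over expected CpG ratio was 0.784, 0.517 and 0.499 in the same order. The share of sites that were unmethylated was 2.33% in windows with 1 to 3 CpGs, 7.82% with 4 to 6, 22.7% with 7 to 9, 48.2% with 10 to 14, 68.7% with 15 to 19 and 62.9% with 20 or more. Windows with over 50% GC and a ratio over 0.6, called island-like here, surrounded 62.2% of the unmethylated and 16.5% of the other sites.

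Island-like sequence and promoter position each went with a higher share. In island-like promoters 68.0% of 2843 sites were unmethylated, against 32.3% of 3251 sites in other promoters, 11.5% of 951 island-like sites outside promoters and 2.74% of 6872 remaining sites. So an island-like window alone did not mark a site as unmethylated. The distance to the nearest CCGG had a median of 28 bases in both classes, and repeat-masked sequence held 10.3% of the unmethylated and 17.6% of the other sites.

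Short motifs were counted in the same windows, on both strands. GGGCGG, the core of the GC box bound by Sp1-type factors, was in 33.3% of the windows of unmethylated sites and 9.16% of the others, and within promoters in 33.6% and 18.3%. TGACGTCA, the cAMP response element, was in 1.25% and 0.310%. CCGGAAG, an ETS motif, was in 12.1% and 8.68%, CACGTG, the E-box, in 4.67% and 3.74%, and GCATGCGC, part of the NRF1 motif, in 1.01% and 0.837%. Motifs without a CpG were less frequent around unmethylated sites over all windows. CCAAT was in 17.6% and 20.4% of the windows. The core promoter box TATAAA was in 5.21% and 10.9%. Within island-like windows some of these orders were lost or turned, with CCAAT in 16.6% and 14%, the TATAAA box in 2.89% and 2.91%, and GCATGCGC in 1.27% and 1.37%, while GGGCGG was in 42.8% and 26.3%. Motifs that hold a CpG or are rich in G and C occur more often in CpG-dense windows, and windows of neighbouring sites overlap. Of the bases flanking the CpG, GCGG was the most frequent context of the unmethylated sites, at 17.2%, against 9.29% of the others.

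The deepest unmethylated sites lay in a block of chromosome 17 that resembles ribosomal DNA. The 3 with most reads were in an exon of the noncoding gene Gm26917 at chr17:39845711, chr17:39845695 and chr17:39845700, with 4637, 4611 and 4599 reads and pooled values of 5.39%, 5.47% and 6.20%. At the first, methylation was 3.77%, 6.37% and 1.96% for testis, 8.47%, 7.50% and 1.71% for caput, 4.89%, 7.87% and 2.94% for corpus and 8.89%, 5.00% and 3.15% for cauda. The samples of each origin differed by more than the origins did.

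This block (chr17:39843013-39848827) also holds an annotated ribosomal RNA gene, and reads placed there can come from several copies. It had 81 table sites with a median of 1803 reads, against 448 for all autosomal sites, and 5 were unmethylated. Its 81 sites ran from 1.21% to 95.7% in pooled methylation, with a median of 27.4%. An unmethylated site at 39848454 (1.21% of 3964 reads) lay 3 bases from a site at 22.7% (39848451). Another at 39846295 (1.32% of 1210 reads) lay 15 bases from a site at 51.4% (39846280). Nearer to 39846295, a site at 39846297 was at 7.83% of 868 reads. These sites were chosen after their values were seen. A C that differs from the reference in some copies or in a parent strain is read as unmethylated after bisulfite treatment, and this was not tested. Outside the block the pooled methylation of the unmethylated sites was 0.675%, and inside it 4.47%. The sequence around the 3 deepest sites is printed to show where they stand (chr17:39845670-39845736, minus strand of GRCm38, capitals as before).
Gm26917: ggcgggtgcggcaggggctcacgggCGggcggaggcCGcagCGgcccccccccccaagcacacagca

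Outside that block, deep sites ranged from no methylated reads to several percent. A site in an untranslated exon of Epas1, the gene of a hypoxia-inducible factor (chr17:86754007), had 13 methylated of 4590 reads. Its highest value in a sample was 1.0025%. At the start of Mrpl10, a mitochondrial ribosomal protein gene, 0 of 1988 reads were methylated at chr11:97041580, which allows up to 0.151% (3 reads of the total). Both sites were chosen after their values were seen. The highest pooled value of any unmethylated site was 6.26%, 1861 bases upstream of Cldn3, a gene for a tight junction protein (chr5:134984353, 2794 reads). Its 12 values were 9.20%, 5.52% and 8.43% for testis, 5.64%, 6.90% and 1.06% for caput, 7.55%, 8.50% and 0% for corpus and 5.22%, 6.83% and 8.64% for cauda. It is low but not empty in 11 of 12 samples, and was also chosen after its values were seen.

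Core cell genes, a list built mainly from symbols of ribosomal, translation, splicing, proteasome, RNA polymerase and respiratory chain genes, which also takes in kinases such as Rps6kb1 and single genes such as Cltc, had an unmethylated site at 48 of the 62 genes with a table site (77.4%), beside 58.6% over all protein-coding genes. Mrpl10 and the related Mrpl51 had 6 unmethylated sites each of 6, with 47 of 11919 and 11 of 2231 reads methylated. Cltc, the clathrin heavy chain gene, had 5 of 5, with 47 of 10198 reads. Eif3j2, a translation initiation gene, had 4 of 5, with 104 of 7789 reads, and its remaining site reached 12.6% in a sample. Over the whole list 91 of 126 sites were unmethylated (72.2%), beside 56.0% of the sites at all protein-coding genes.

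Developmental regulators, families of transcription factor and signalling genes, had an unmethylated site at 75 of 106 genes (70.8%, beside 58.6% over all protein-coding genes). By site the share was 187 of 323 (57.9%), near the 56.0% over all protein-coding genes. Foxc1, a forkhead gene, had 8 of 10 sites, with 23 of 9861 reads methylated, and Gata3, a zinc finger gene, 8 of 9, with 12 of 2692 reads. Zic4, a zinc finger gene of the brain, had 7 of 9, with 133 of 7364 reads, and the paired box gene Pax2 had 7 of 8, with 47 of 5232 reads. The sites of these genes that missed the rule reached 26.7%, 10.5%, 38.9% and 12.5% in their highest sample. Pooled methylation of the unmethylated sites was 1.07% in this list and 0.666% in the core cell genes.

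Germline genes had an unmethylated site at 3 of 10 genes (30.0%) and 7 of 25 sites (28.0%), beside 58.6% of genes and 56.0% of sites over all protein-coding genes. The same background applies to the lists that follow. The 3 genes were Tfap2c, a factor of early germ cells, with 4 of 4 sites, the cohesin gene Smc1b with 2 of 2 and the germ cell regulator Prdm14 with 1 of 4. Tfap2c and Prdm14 also count among the developmental regulators. The other 7 genes were D1Pas1, Dazl, Kitl, Meioc, Tdrd6, Tex101 and Tex14. D1Pas1 and Tex101 are described here after their values were seen. D1Pas1, a DEAD-box helicase gene, was low in testis at 0%, 0% and 0% over 3 sites, and at 0%, 0% and 4.85% in cauda, but at 89.9%, 48.7% and 71.1% in caput and 20.7%, 56.8% and 0% in corpus. Tex101 was at 0%, 0% and 4% in testis and at 0%, 0% and 0% in cauda, with caput samples at 82.6%, 33.9% and 59.4% and corpus samples at 30%, 38.0% and 16.7%. At both genes every caput sample lay above all testis and cauda samples, as also at Dazl, Meioc and Tex14. At Kitl, caput (3.37%, 12.5% and 4%) overlapped with testis (7.43%, 0% and 4.76%). At Tdrd6, caput replicate 2 (42.75%) lay below cauda replicate 3 (43.14%). Of the spermiogenesis genes, Tssk6, a testis-specific kinase gene, had 1 unmethylated site of 2, and both sites are also counted among the core cell genes, for Ndufa13. The genes Cfap43, Cfap69 and Dnah8 had no unmethylated site.

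Among imprinted loci methylated in oocytes, 2 of 4 genes had unmethylated sites, and both, Trappc9 (4 of 4) and Blcap (2 of 2), are the genes that host an imprinted transcript. The imprinted transcripts Mcts2 and Zrsr1 had none, and their sites reached 73.3% and 64.3%. Of the genes listed for loci methylated in sperm, Rasgrf1 had 3 unmethylated sites of 4, with 5 of 2402 reads methylated, and H19 had none. The Rasgrf1 sites stand 774 to 807 bases upstream of a start. Whether they lie in the region methylated in sperm was not tested. Of the epididymal epithelium markers, Cldn3 had the 1 site given above of 2, and Krt18, a keratin gene, had 0 of 5. Only 2 of the 42 markers in this list had a table site. Averaged over its sites, and looked up after the left-out values were seen, Krt18 was at 92.4%, 94.6% and 88.8% for testis and 93.1%, 93.5% and 86.4% for cauda, with caput samples at 43.0%, 57.0% and 52.7% and corpus samples at 67.8%, 76.7% and 69.8%. No leukocyte marker had a table site. Tet1 and Dnmt3a, the only genes of the Dnmt and Tet enzymes with table sites, had 0 of 3 and 0 of 2.

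To measure methylation in samples that did not choose the sites, the rule was applied to 11 samples at a time and read in the remaining one. This gave 3307 to 3430 sites per left-out sample. Mean methylation there was 0.672%, 0.783% and 0.775% for testis, 1.35%, 0.953% and 0.921% for caput, 0.885%, 1.05% and 0.982% for corpus, and 0.799%, 0.735% and 0.647% for cauda. Each caput and each corpus sample was above all testis samples, and cauda and testis overlapped.

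Caput averaged 1.07% ± 0.237 and testis 0.743% ± 0.0622 (SD, n = 3), a difference of 0.330 percentage points (exact two-sided permutation test, p = 0.1, adjusted p = 0.15 over 3 comparisons). Corpus, at 0.973% ± 0.0841, was 0.230 points above testis (exact permutation p = 0.1, adjusted p = 0.15, n = 3). Cauda, at 0.727% ± 0.0764, differed from testis by -0.0162 points (exact permutation p = 0.7, adjusted p = 0.7, n = 3). With 3 samples against 3 the smallest possible p is 0.1, so none of these could pass a threshold of 0.05. The 3 comparisons share the testis samples. The caput difference was 0.502 points without caput replicate 2 and 0.546 points without caput replicate 3, where only a pair of caput samples remained. It was 0.150 points at a limit of 5%, 0.833 at 20% and 0.893 with all 3 samples of each origin left out together. The corpus difference was 0.0888 points at 5% (exact permutation p = 0.3, adjusted p = 0.4, n = 3), 0.40 at 20% and 0.323 with whole origins left out. The sizes thus depend on the limit and on the samples that choose the sites.

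In a comparison added after the data were seen, both origins were read at the same sites, chosen only by the 6 samples of the other origins. At 3905 such sites caput samples were at 2.39%, 1.58% and 1.52% and testis samples at 0.793%, 0.897% and 0.853%, a difference of 0.982 points. At 3761 sites corpus samples were at 0.993%, 1.24% and 1.09% and testis samples at 0.727%, 0.836% and 0.872%, a difference of 0.296 points (exact permutation p = 0.1 and adjusted p = 0.15 for each, n = 3). For cauda the difference was -0.0109 points at 3579 sites (exact permutation p = 0.7, adjusted p = 0.7, n = 3).

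Each left-out set holds the 3279 unmethylated sites, which are at most 10% in the sample by definition, and the sites that this sample alone puts above 10%. The left-out values therefore depend both on the 3279 shared sites and on how many sites each sample alone excluded from the rule and how high these are. The sets differ between samples. The testis samples had more than 10% at 56, 37 and 48 sites (1.68%, 1.12% and 1.44%), caput at 151, 93 and 94 (4.40%, 2.76% and 2.79%), corpus at 101, 75 and 100 (2.99%, 2.24% and 2.96%), and cauda at 47, 53 and 28 (1.41%, 1.59% and 0.847%). Above 25% there were 1, 0 and 3 sites for testis, 35, 12 and 16 for caput, 25, 5 and 24 for corpus, and 0, 3 and 0 for cauda. Higher counts in caput and corpus were not particular to these sets. Of all autosomal sites, 58.0%, 58.6% and 58.4% were above 10% for testis, 67.1%, 66.6% and 66.1% for caput, 61.3%, 66.3% and 63.2% for corpus and 57.8%, 58.0% and 57.3% for cauda. Median coverage at the left-out sites was 39, 46 and 39 reads for testis, 28, 38 and 29 for caput, 23, 39 and 29 for corpus and 36, 30 and 34 for cauda. The part of depth in the differences was not tested. With at least 20 reads in every sample the differences from testis were 0.409 points for caput and 0.235 for corpus. At the epithelial marker Krt18, caput and corpus samples also stood apart from testis, with the values given above. At Cldn3, the only other such marker with table sites, the mean of its 2 sites was 4.60%, 4.52% and 7.28% for testis, 2.82%, 3.45% and 0.532% for caput and 17.8%, 5.60% and 0% for corpus. Caput was thus below testis at both markers, while corpus was below testis at Krt18 and overlapped with it at Cldn3. The cells had been sorted by fluorescence, and whether other cells had a part in the differences was not tested.

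With all 3 samples of an origin left out together, the other 9 chose 3423 sites for testis, 3712 for caput, 3582 for corpus and 3412 for cauda. Of these, 95.8%, 88.3%, 91.5% and 96.1% were also at most 10% in all 3 left-out samples. Mean left-out methylation was then 0.745% ± 0.0597 for testis, 1.64% ± 0.406 for caput, 1.07% ± 0.105 for corpus and 0.741% ± 0.0670 for cauda (SD, n = 3). Above 10% in all 3 left-out samples were 0 sites in testis, 25 in caput (0.673%), 0 in corpus and 1 in cauda. Of the 25 caput sites, 11 were in promoters (44%), 5 in exons, 4 in introns and 5 intergenic, while promoters held 88.8% of the 3712 chosen sites and 43.8% of all autosomal sites.

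The caput sites with the highest means were chosen by these values, so they are described and not tested. A pair of intergenic sites 10 bases apart, 16283 and 16293 bases upstream of Gm14262 (chr2:168311404 and chr2:168311414), was at 91.7%, 50% and 68.4% and at 91.7%, 52.0% and 68.4% in caput, from 24, 26 and 19 and from 24, 25 and 19 reads. In the other 9 samples the pair stayed at or below 8.16%. A site 229 bases upstream of Fnta, a subunit gene of the farnesyltransferase (chr8:26015879), was at 82.1%, 40.8% and 48.6% in caput, from 28, 49 and 35 reads, and at most 9.09% elsewhere. In cauda the single site was in an intron of Zswim6 (chr13:107888239), at 11.5%, 14.3% and 12.2% from 26, 28 and 49 reads, against at most 6.25% in the other origins. These sites count among the others of the table, since a rule over all 12 samples drops a site as soon as 1 origin departs.

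The caput pair is printed from GRCm38 to show where it stands (chr2:168311379-168311439, plus strand, capitals on the pair).
Gm14262: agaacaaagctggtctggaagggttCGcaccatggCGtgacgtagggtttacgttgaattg
Its 61 bases held 4 CpGs and no CCGG, and had a GC content of 50.8%, below each of the 4 cluster windows above. Those windows were chosen for their many sites, so this is no comparison with unmethylated sites in general.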

How the data were processed

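RRBS of spermatozoa sorted from testis, caput, corpus and cauda gave 3 samples per origin. The authors deposited, per CpG and sample, counts of all reads and of methylated and unmethylated reads (36 columns, all used). Their processing notes name FastQC, Trim Galore 0.4.1, Bismark 0.16.1, the build GRCm38 and methylKit. The deposited lists of differential sites and regions hold the authors' own comparisons and were not used. Percent methylation was computed as methylated over all reads. Positions were read against GENCODE M21 and RefSeq; every site fell on a CpG of GRCm38. A promoter was 2 kb on either side of a transcript start. Left-out means were compared by exact two-sided permutation tests with Benjamini-Hochberg adjustment. The members and gene lists were chosen with earlier results of these data known. Named sites were the 10 clusters with most sites, the 3 deepest, 3 on each side of the limit, the left-out sites with the highest means, and 4 genes per list with most unmethylated sites; others are marked where named. Replicates are separate samples per the labels, so p-values measure only the spread between them. Functions were tested on simulated data. Alternatives were limits of 5% and 20%, at least 20 reads, pooled origins, all chromosomes, summed strands, other promoter, annotation and gap settings, and leaving out each sample. Python 3.11.15, numpy 2.4.6, pandas 2.3.3, scipy 1.17.1, pysam 0.24.0 and samtools 1.23.1 were used.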

Additional observations from a re-analysis of the deposited data

How the results depend on the processing

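The number of unmethylated sites was 2258 at a limit of 5%, 4175 at 20%, 4313 when the rule used the pooled reads of each origin and 3307 to 3430 when a sample was left out. It was 1261 with at least 20 reads in every sample, since fewer sites were then eligible. The promoter share was 92.1% at 5%, 87.9% at 20%, 87.9% with pooled origins and 85.5% with promoters of 1 kb, and the cluster share was 56.7%, 73.1% and 74.4% under the first 3 of these. Without 1 sample at a time, the promoter share was 90 to 91.1% and the cluster share 68.3 to 69.1%.

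Residual methylation moved with the limit that defines it. In testis, caput, corpus and cauda in turn it was 0.265%, 0.175%, 0.201% and 0.243% at 5%, and 0.848%, 1.07%, 0.990% and 0.854% at 20%. With pooled origins it was 0.866%, 1.13%, 1.05% and 0.845%. With at least 20 reads it was 0.678%, 0.786%, 0.700% and 0.677%, and as the mean of the pooled value of each sample 0.676%, 0.773%, 0.700% and 0.661%. Caput was thus below testis and cauda under the rule as used and above both under the last 4 of these settings. The cause was not tested. In caput the residual was 0.442 to 0.507% when a sample was left out. In corpus it was 0.344% without corpus replicate 2 and 0.586% without corpus replicate 1. The depth ratio averaged 0.907 over samples, 1.03 with at least 20 reads and 1.03 from mean coverage.

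In alternatives chosen after seeing the data, taking only the deepest site of each run gave a promoter share of 88.9% and a caput residual of 0.520%, and without the ribosomal DNA-like block of chromosome 17 the number of sites was 3274, the promoter share 90.93% and the cluster share 68.3%. Mean residuals, the depth ratio and the left-out differences then moved by less than the spread between samples, while the pooled residual was 0.675% against 0.709%.

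The left-out difference between caput and testis was 0.302 to 0.546 points when a sample was left out, and that of corpus 0.198 to 0.323. At a limit of 5% they were 0.150 and 0.0888 points (exact permutation p = 0.1 and 0.3, adjusted p = 0.3 and 0.4, n = 3), and at 20% 0.833 and 0.40 points (exact permutation p = 0.1 and 0.1, adjusted p = 0.15 and 0.15, n = 3). At the same sites in both origins, chosen by the other 6 samples after seeing the data, the differences were 0.982, 0.296 and -0.0109 points. For cauda it was -0.0601 to 0.0247 when a sample was left out, with a sign that turned without testis replicate 2, testis replicate 3 or cauda replicate 3. The median over sites was 0% in every origin. With the replicate number as a replicate block, the differences were 0.330, 0.230 and -0.0162 points (exact sign-flip p = 0.25, 0.25 and 0.75, n = 3 pairs), where 0.25 is the smallest p possible. Same-numbered samples correlated at -0.123 to 0.0592 in their deviations from the origin means. The labels do not say whether same-numbered samples came from the same mice, and these correlations cannot decide it.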
